A study of Homo sapiens with 4 samples.

Results

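The microRNAs (miRNAs) of HGC27 and AGS, a pair of established human gastric cancer lines, were compared in the material recovered with the negative RNA probe to the FN1 3′-untranslated region (3′-UTR). These are 2 of the 4 libraries of the series, 1 for each line, and they were taken by the cell line and the probe given in their labels. HGC27 was derived from an undifferentiated gastric carcinoma and AGS from a gastric adenocarcinoma. In both lines the FN1 3′-UTR, the end of the fibronectin transcript, was stably overexpressed from a lentivirus under puromycin selection. HGC27 was grown in RPMI medium and AGS in DMEM/F12, so line and medium cannot be told apart. The probe was held on streptavidin beads and mixed with a cell lysate, and small RNA left on the beads after washing was sequenced. The values are thus shares of what a pull-down retained and not levels in total cell RNA. The labels do not tie the name of the negative probe to a strand. With 1 library a side the differences have no replicate check, and no test was made. Intervals cover counting error only.

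A miRNA is a short RNA cut from a hairpin precursor, and it guides the silencing machinery to messenger RNAs that pair with its seed, bases 2 to 8. Families that share a seed can act on the same messages, and hairpins that lie side by side are often transcribed together. In epithelial tumours the miR-200 family is known for restraining ZEB1 and ZEB2, factors of the epithelial-to-mesenchymal transition. The miR-371 to miR-373 and miR-302 clusters are known from embryonic stem cells.

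The sequences of the miRNAs on which the comparison turned are given from 5′ to 3′ with the seed in capitals. They were read from RefSeq (GRCh38.p14), in which 513 of the 570 known names of the table were found, all 513 with the same sequence as in the deposited table. The first set is of miRNAs held largely by AGS, and it is shown because 3 of them carry the seed AAGUGCU and 3 the seed AAUACUG.
miR-372-3p: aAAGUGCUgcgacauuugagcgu
miR-373-3p: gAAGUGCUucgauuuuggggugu
miR-302b-3p: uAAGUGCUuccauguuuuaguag
miR-371a-5p: aCUCAAACugugggggcacu
miR-200b-3p: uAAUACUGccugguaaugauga
miR-200c-3p: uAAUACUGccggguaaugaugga
miR-429: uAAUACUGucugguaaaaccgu
miR-200a-3p: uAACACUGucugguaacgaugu
miR-203a-3p: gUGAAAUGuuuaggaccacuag

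The second set is of miRNAs with larger shares in HGC27, with the near-identical relatives that did not differ as much. It shows which members of a seed family can be told apart only by bases outside the seed.
miR-148a-3p: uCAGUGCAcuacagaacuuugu
miR-148b-3p: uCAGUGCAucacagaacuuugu
miR-100-5p: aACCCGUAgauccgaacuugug
miR-99a-5p: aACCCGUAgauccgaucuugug
miR-99b-5p: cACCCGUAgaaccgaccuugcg
miR-125b-5p: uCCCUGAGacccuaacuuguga
miR-125a-5p: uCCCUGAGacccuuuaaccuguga
let-7c-5p: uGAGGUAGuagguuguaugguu
let-7a-5p: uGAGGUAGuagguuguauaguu
let-7e-5p: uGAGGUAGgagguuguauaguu
miR-340-5p: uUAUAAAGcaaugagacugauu
miR-199a-3p: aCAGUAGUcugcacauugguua
miR-196a-5p: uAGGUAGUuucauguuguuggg
miR-196b-5p: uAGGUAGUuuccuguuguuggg
miR-9-5p: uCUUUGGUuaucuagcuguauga
miR-129-5p: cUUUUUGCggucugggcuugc

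The largest share was held by a different miRNA in each line. In AGS, miR-372-3p took 2388335 of 2955078 counts, a share of 80.8% (95% exact binomial interval 80.8 to 80.9), against 2580 of 1452832 counts or 0.178% (0.171 to 0.185) in HGC27. In HGC27, miR-148a-3p took 734628 counts, 50.6% (50.5 to 50.6), against 144027 counts or 4.87% (4.85 to 4.90) in AGS. Together the pair made up 50.7% of the HGC27 counts and 85.7% of the AGS counts. A share of all counts therefore leaves other miRNAs much less room in AGS. When both were left out of the totals, 715624 counts remained in HGC27 and 422716 in AGS, and every ratio of HGC27 over AGS was 3.44-fold lower, a shift of 1.78 on the log2 scale. Each comparison is therefore given with both totals.

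**Figure D1:**
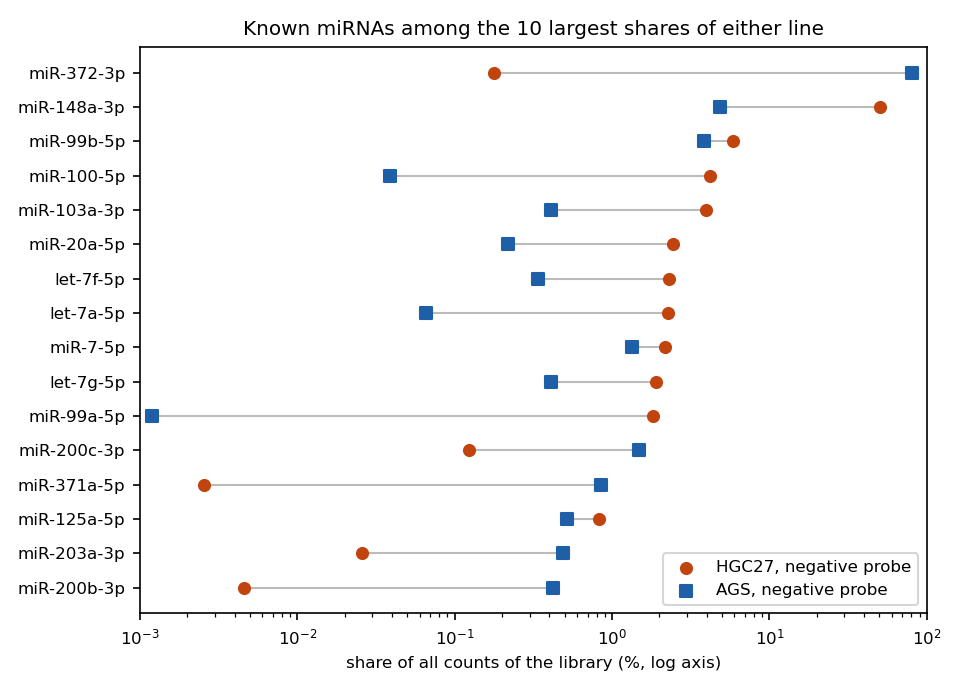
Share of all counts of the library (%, log axis) for the known miRNAs among the 10 largest of either line, HGC27 as circles and AGS as squares, 1 library each. The lines are farthest apart for miR-99a-5p, miR-372-3p and miR-371a-5p, whereas miR-99b-5p, miR-7-5p and miR-125a-5p lie close together.

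The HGC27 library listed more miRNAs and was spread over more of them. It listed 574 of the 843 names and AGS listed 342. The totals were 1452832 and 2955078, but outside miR-372-3p and miR-148a-3p HGC27 was the deeper library, with 715624 counts against 422716, and the names were not counted at a matched depth. The 10 largest entries held 77.5% of the HGC27 counts and 95.8% of the AGS counts, and 90% of the counts were reached with 26 entries in HGC27 and with 4 in AGS. Both lines listed 301 names, 273 were listed in HGC27 alone and 41 in AGS alone. Most of those listed in 1 line rested on few counts, since 200 of the 273 and 29 of the 41 had under 10. No entry was listed below 2 counts.

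Names with at least 100 counts in either line were compared, 159 in all, of which 145 were known miRNAs and 14 were entries predicted from the reads by the authors. With all counts in the totals, 114 of the 159 had a share at least 4-fold higher in HGC27 (71.7% of those compared) and 16 had one at least 4-fold higher in AGS (10.1%). Without the pair in the totals these were 66 (41.5%) and 19 (11.9%). The median log2 ratio of HGC27 over AGS over the 159 was 3.37 with all counts and 1.58 without the pair. A restricted miRNA was defined as one with at least 100 counts in its line and a share at least 10-fold that of the other line, with a count under 3 set at 3. With all counts, 80 of the 144 names with at least 100 counts in HGC27 were restricted to that line (55.6%), and 15 of 85 were restricted to AGS (17.6%). Without the pair, 40 were restricted to HGC27 (27.8%) and 16 to AGS (18.8%). The balance between the lines thus depended on the totals. Under both totals 40 were restricted to HGC27 and 15 to AGS, and these are described by family. Nearest to the limit without the pair were let-7a-5p, at 9.94-fold, and a predicted end form of miR-181c-3p, at 11.3-fold. In AGS, miR-200a-5p, with 548 counts against 55 in HGC27, passed without the pair (16.9-fold) and not with all counts (4.90-fold).

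**Figure D2:**
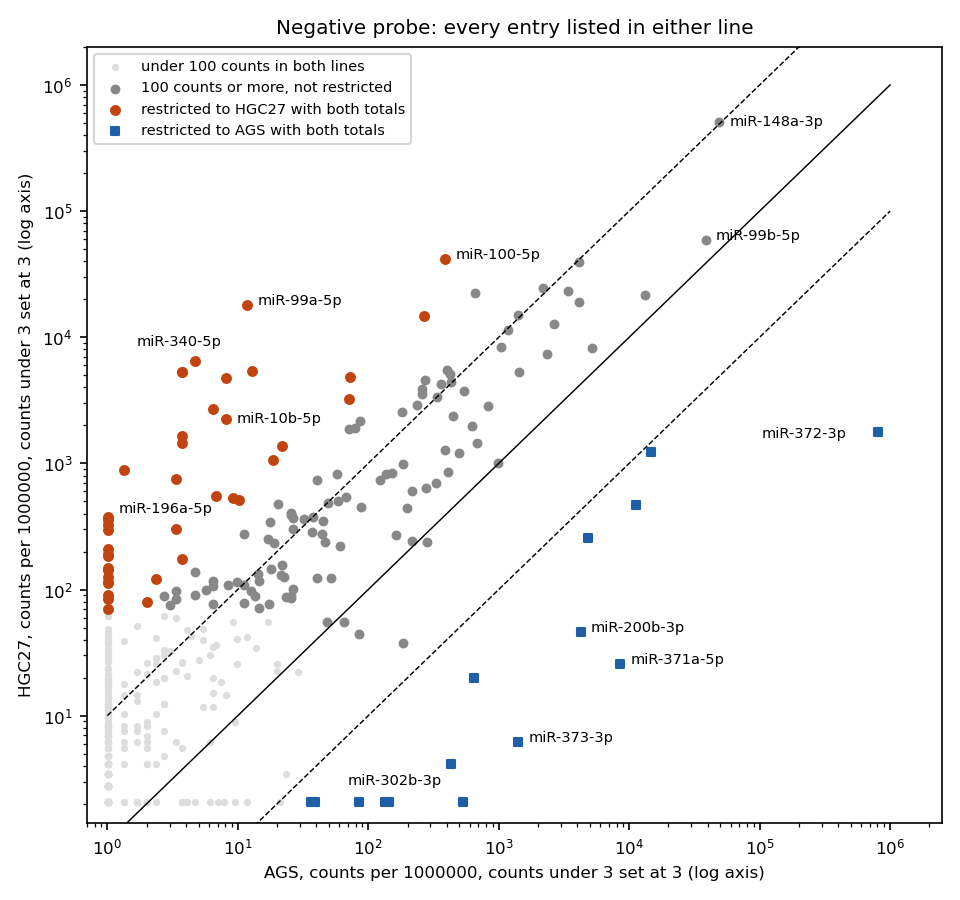
Counts per 1000000 in HGC27 against AGS for every entry listed in either line, both on log axes with counts under 3 set at 3, 1 library each. The solid line marks equal shares and the dashed lines a 10-fold difference. The 15 entries restricted to AGS lie below the lower dashed line, while the 40 restricted to HGC27 lie far above the upper one.

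The set restricted to AGS was small and abundant. Its 15 entries, 14 known and 1 predicted, held 85.5% of the AGS counts and 0.384% of the HGC27 counts. By family, 4 of the known ones were of the miR-371 to miR-373 cluster, 5 of the miR-200 family, 2 of the miR-203 hairpins, 1 of the miR-302 cluster and 1 of the chromosome 19 miRNA cluster, and the last was miR-31-5p.

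The miR-371 to miR-373 cluster made up most of the AGS library. It held 81.9% of the AGS counts and 0.181% of the HGC27 counts. All 4 members with at least 100 counts in a line were at least 4-fold higher in AGS under both totals (10.1% and 11.9% of all names were). Their median log2 ratio was -8.20 against 3.37 over all names compared, and -9.98 against 1.58 without the pair. Apart from miR-372-3p, they had under 100 counts in HGC27 and passed the count minimum through AGS alone. The minimum itself thus favoured the AGS side for them. Of the 159 names compared, 144 had at least 100 counts in HGC27, so the values over all names are not a like background. The 4 mature miRNAs lie within 1091 bases of chromosome 19, chr19:53787680-53788770 on the plus strand of GRCh38, outside any annotated gene on that strand.

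The share of miR-372-3p was 455-fold higher in AGS (95% interval 438 to 473), and 1567-fold higher without the pair in the totals. For miR-371a-5p, AGS had 25095 counts and HGC27 37, or 333-fold more by share (242 to 474). The counts of miR-373-3p were 4181 and 9, or 228-fold (120 to 500). From the other arm of the first hairpin, miR-371a-3p had 1582 counts in AGS and 2 in HGC27, a ratio of 389 (107 to 3214). The passenger strands miR-372-5p and miR-373-5p were listed only in AGS, with 11 and 28 counts. HGC27 was thus low for each measured arm of the cluster.

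The miR-302 cluster shares the AAGUGCU seed but lies on chromosome 4, where its members miR-302a to miR-302d are processed from the same transcript. AGS listed miR-302b-3p at 396 counts, miR-302a-3p at 18, miR-302d-3p at 14 and miR-302c-3p at 4, and HGC27 listed none of them. The share of miR-302b-3p was at least 64.9-fold higher in AGS, taken against 3 counts in HGC27. In the chromosome 19 miRNA cluster, a primate cluster known from placenta, miR-522-3p had 107 counts in AGS and 2 in HGC27, a ratio of 26.3 (7.11 to 220). Its other 3 listed members, miR-519a-3p, miR-1323 and miR-518b, had 11, 7 and 2 counts in AGS and 0 in HGC27.

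Members of the miR-200 family, which marks epithelial cells, had 60355 counts in AGS, 2.04% of the total, and 1952 counts or 0.134% in HGC27. The 6 members with at least 100 counts in a line were all at least 4-fold higher in AGS under both totals, beside 10.1% and 11.9% of all names compared. Their median log2 ratio was -5.19, or -6.98 without the pair, where all names had 3.37 and 1.58. All of them but miR-200c-3p had under 100 counts in HGC27 and passed the count minimum through AGS alone. The minimum itself thus favoured the AGS side for them. Of the 159 names compared, 144 had at least 100 counts in HGC27, so the values over all names are not a like background. The gap was not even across members. It was widest for miR-429, at 1264 counts in AGS and 6 in HGC27 (104-fold, 47.5 to 283), and for miR-200b-3p, at 12532 and 67 counts (91.96-fold, 72.4 to 119).

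The counts of miR-200a-3p were 1916 in AGS and 29 in HGC27 (32.5-fold, 22.5 to 48.6). These miRNAs come from a cluster of 1953 bases, chr1:1167124-1169076 on the plus strand, that also gives miR-200b-5p, with 252 and 2 counts. The most abundant member, miR-200c-3p, comes from a separate hairpin on chromosome 12 in an intron of MIR200CHG. It had 43828 counts in AGS and 1793 in HGC27, a smaller difference of 12.02-fold (11.46 to 12.61). It shares its seed with miR-200b-3p and differs from it at 2 of 22 aligned positions. HGC27 thus kept a measurable miR-200c-3p signal, 0.123% of its counts, and miR-200c-3p was 1793 of its 1952 family counts. The partner of miR-200c in the same transcript, miR-141-3p, was listed at 12 counts in AGS and 0 in HGC27.

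The epidermal and epithelial miRNA miR-203a-3p had 14347 counts in AGS and 373 in HGC27 (18.9-fold, 17.06 to 21.01). A predicted entry on chromosome 14 begins 1 base inside miR-203a-3p, shares 21 bases with it and so has another seed. This entry had 33453 counts in AGS and 680 in HGC27 (24.2-fold), more than the known form in both lines. Hence 70.0% of the pair in AGS and 64.6% in HGC27 were the form with the shifted start. Opposite to it on the minus strand lies miR-203b-3p, with 116 and 2 counts. Finally, miR-31-5p, from the MIR31HG locus on chromosome 9, had 430 counts in AGS and 3 in HGC27, a ratio of 70.5 (24.0 to 343).

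The set restricted to HGC27 was broader, and none of its members led the library as miR-372-3p led AGS. Its 40 entries, 36 known and 4 predicted, held 12.8% of the HGC27 counts and 0.0957% of the AGS counts. Among them miR-199a-3p and miR-199b-3p have the same sequence and the same counts, which are included under both names. In AGS 10 of the 40 had no count, 8 of them known. The most abundant miRNA of HGC27, miR-148a-3p, was not among them. Its share was 10.4-fold higher in HGC27 (10.3 to 10.4), and 3.01-fold when it and miR-372-3p were left out of the totals. Both values were near the medians over the 159 names compared, 10.3-fold and 3.00-fold.

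The miR-99/100, let-7 and miR-125 clusters gave 4 of the 40 entries. The genome holds 3 such clusters, each with a member of the miR-99/100 family, a let-7 and a miR-125. The lines differed at 2 of them and were closer at the remaining one. On chromosome 21, inside introns of MIR99AHG, miR-99a-5p had 26405 counts in HGC27 and 35 in AGS, which is 1535-fold apart (1103 to 2204), or 446-fold without the pair. Its neighbour let-7c-5p, 759 bases from the start of one to the end of the other (chr21:16539101-16539859), had 7842 and 38 counts, which is 420-fold apart (305 to 594), or 122-fold without the pair. Both had the largest ratios of their seed families.

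On chromosome 11, inside introns of MIR100HG, miR-100-5p had 61031 counts in HGC27 and 1153 in AGS (108-fold, 102 to 114, or 31.3-fold without the pair). The mature miR-125b-5p is made from both clusters and had 6856 and 24 counts (581-fold, 390 to 908). The passenger strands tell its hairpins apart. The strand from chromosome 21, miR-125b-2-3p, had 44 counts in HGC27 and 0 in AGS, whereas that from chromosome 11, miR-125b-1-3p, had 11 and 8. These were chosen after their values were seen. For miR-125b-1-3p the ratio was 2.80 (1.02 to 8.01), and it was 0.812 without the pair. Also made on chromosome 11, but from hairpins on chromosomes 9 and 22 as well, let-7a-5p had 32858 and 1953 counts (34.2-fold, 32.7 to 35.8), and 9.94-fold without the pair.

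The chromosome 19 cluster, in introns of SPACA6 at chr19:51692618-51693291, was the one nearest to even with both totals. Here miR-99b-5p had 85332 counts in HGC27 and 113717 in AGS, shares of 5.87% and 3.85%, so that it was the second miRNA of HGC27 and the third of AGS. The ratio was 1.53 (1.51 to 1.54), or 0.443 without the pair. For miR-125a-5p the counts were 12024 and 15304 (1.598, 1.56 to 1.64, or 0.464 without the pair). For let-7e-5p they were 1841 and 1148 (3.26, 3.03 to 3.51, or 0.947 without the pair). With library sizes by the trimmed mean of M-values, all 3 were on the AGS side. The log2 ratios were then -2.12 for miR-99b-5p, -2.05 for miR-125a-5p and -1.02 for let-7e-5p. The direction for these 3 miRNAs changed with the totals, which it did not for miR-99a-5p, let-7c-5p, miR-125b-5p, miR-100-5p or let-7a-5p. The seed ACCCGUA of the miR-99/100 family is a case in point, with 11.96% of the HGC27 counts and 3.89% of the AGS counts, the former spread over 3 members and the latter nearly all miR-99b-5p. Because miR-99a-5p and miR-100-5p differ at 1 of 22 positions, as let-7a-5p and let-7c-5p do, reads of one can be assigned to the other through a base error. What part this had in the 35 counts of miR-99a-5p and the 38 of let-7c-5p in AGS was not tested.

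**Figure D3:**
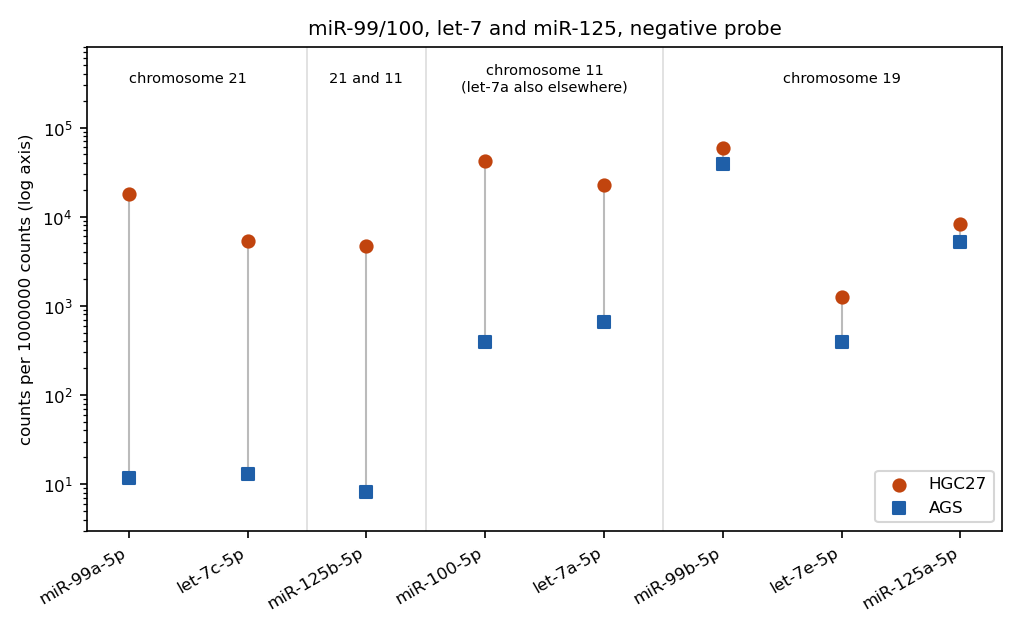
Counts per 1000000 counts (log axis) of the guide strands of the 3 miR-99/100, let-7 and miR-125 clusters, HGC27 as circles and AGS as squares, 1 library each, with all counts in the totals. The lines are far apart for miR-99a-5p, let-7c-5p and miR-125b-5p, and the 3 miRNAs of chromosome 19 differ least.

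The rest of the let-7 family, known for repressing HMGA2, RAS and LIN28 messages, differed less than let-7c-5p. The 9 members together held 8.87% of the HGC27 counts and 1.18% of the AGS counts. With all counts 8 of 9 were at least 4-fold higher in HGC27, a share near the background of 71.7%, and without the pair 2 of 9 were, let-7a-5p and let-7c-5p, beside 41.5% of all names. The median log2 ratio was 2.77, or 0.99 without the pair. The ratio of let-7f-5p was 6.82 (6.67 to 6.98), that of let-7i-5p 4.74 (4.62 to 4.87) and that of let-7g-5p 4.62 (4.52 to 4.72). Without the pair these were 1.98, 1.38 and 1.34. With library sizes by the trimmed mean of M-values (TMM), let-7i-5p and let-7g-5p were on the AGS side, at log2 ratios of -0.48 and -0.52.

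The miR-199 hairpins, known from mesenchymal cells, had some of the larger ratios of HGC27. The sequence of miR-199a-3p, which is also that of miR-199b-3p, had 7692 counts in HGC27 and 11 in AGS (1422-fold, 794 to 2850, or 413-fold without the pair). Both names carry these counts, so the reads behind them cannot be told apart. The other arm, miR-199a-5p, had 472 and 3 counts, a ratio of 320 (109 to 1557). Beside it in DNM3OS on chromosome 1, miR-214-5p had 269 and 3 counts, a ratio of 182 (61.7 to 890). In the miR-143 and miR-145 cluster, known from smooth muscle and fibroblasts, miR-143-3p had 1999 and 65 counts (62.6-fold, 48.9 to 81.4), while miR-145-5p had 4 counts in HGC27 and 0 in AGS. On the X chromosome, miR-424-3p had 520 and 2 counts, a ratio of 529 (146 to 4378), and miR-542-3p had 167 and 0.

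Hairpins within the HOX gene clusters, which give cells their position along the body axis, were unevenly held. From the HOXD cluster, miR-10b-5p had 3262 counts in HGC27 and 24 in AGS (276-fold, 185 to 432). Its relative from the HOXB cluster, miR-10a-5p, had 930 and 814 counts, a ratio of 2.32 (2.11 to 2.56) with all counts and of 0.675 without the pair. The mature miR-196a-5p is made from HOXC6 on chromosome 12 and from HOXB7 on chromosome 17, the HOXB cluster again. Its counts were 549 and 0, at least 372-fold higher in HGC27 against 3 counts in AGS. Those of miR-196b-5p, which differs from it at 1 of 22 positions and lies by HOXA9, were 102 and 0, at least 69.2-fold higher. From an intron of HOXC5, miR-615-3p had 6970 and 215 counts (65.9-fold, 57.6 to 75.9). Thus miR-10a-5p was the 1 miRNA of these 5 that AGS held at a share like that of HGC27.

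Among the remaining miRNAs of the set, miR-340-5p, from an intron of RNF130, had 9486 counts in HGC27 and 14 in AGS (1378-fold, 821 to 2522). The neuronal miRNAs miR-9-5p and miR-129-5p had 2111 and 2390 counts in HGC27 and 11 each in AGS, differences of 390-fold and 442-fold. From an intron of TENM4, miR-708-5p had 1295 and 4 counts (659-fold, 257 to 2420). The counts of miR-218-5p, made within SLIT2 and SLIT3, were 1090 and 10 (222-fold, 120 to 464). For miR-378a-3p, with 21557 counts in HGC27 and 792 in AGS, the difference was 55.4-fold (51.6 to 59.5). With 302 and 277 counts in HGC27, miR-1299 and miR-452-5p had no count in AGS. Also restricted to HGC27 was miR-126-3p, a marker of endothelium, with 795 and 20 counts (80.9-fold, 52.0 to 133, or 23.5-fold without the pair). The other 12 known members were miR-92b-3p, miR-1180-3p, miR-1246, miR-193a-5p, miR-181d-5p, miR-548ah-3p, miR-361-5p, miR-6720-3p, miR-9-3p, miR-378a-5p, miR-340-3p and miR-140-5p. They had between 132 and 4708 counts in HGC27 and between 0 and 211 in AGS, and their differences lay between 45.4-fold for miR-92b-3p and 292-fold for miR-548ah-3p. The 4 predicted members were end forms of known miRNAs. The most abundant begins 1 base inside miR-10b-5p, with 3899 counts in HGC27 and 19 in AGS, and it made up 54.4% of its pair in HGC27. Those of miR-204-5p and miR-767-5p had 216 and 123 counts in HGC27 and 0 in AGS, and that of miR-181c-3p had 115 and 6.

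The miRNAs of the miR-17-92 cluster and its paralogs, which are driven by MYC and promote proliferation, were higher in HGC27 by amounts near the median of all names. Their share was 4.13% in HGC27 and 0.342% in AGS. All 10 members with at least 100 counts in a line were at least 4-fold higher in HGC27 with all counts, and 7 of 10 were without the pair, beside 71.7% and 41.5% of all names compared. The median log2 ratios were 3.96 and 2.18, beside 3.37 and 1.58 over the 159. The most abundant, miR-20a-5p, had 35380 counts in HGC27 and 6478 in AGS (11.1-fold, 10.8 to 11.4, or 3.23-fold without the pair). None of these 10 was restricted under both totals.

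**Figure D4:**
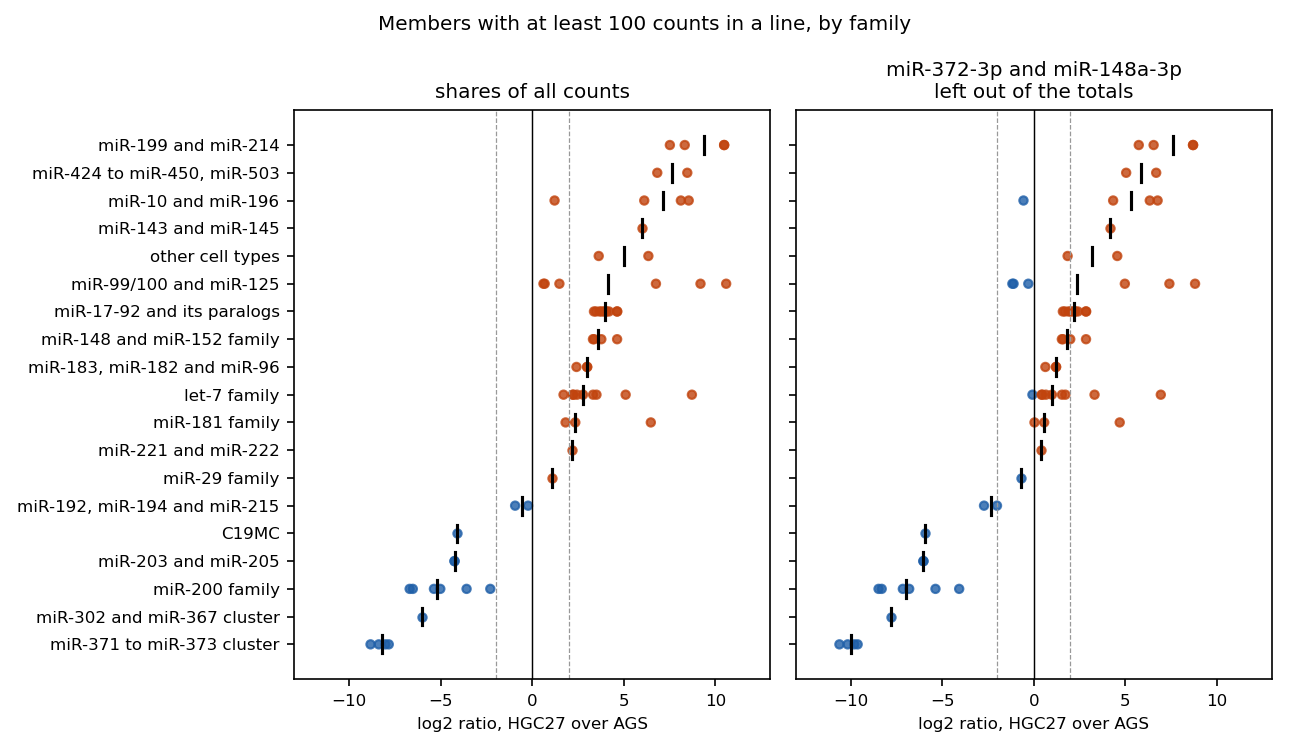
Log2 ratio of HGC27 over AGS for members with at least 100 counts in a line, by family, with all counts in the totals (left) and with miR-372-3p and miR-148a-3p left out (right). Points are miRNAs coloured by the sign of the ratio, black bars are family medians and dashed lines mark 4-fold. The 6 lowest families stay on the AGS side in both panels, whereas let-7e-5p, miR-10a-5p and the miR-99b cluster cross 0. Several members of those 6 families passed the count minimum through AGS alone.

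Of the 159 names compared, 29 were within 4-fold with all counts in the totals and 74 were without the pair. Without the pair in the totals, the 6 with the largest summed counts among those of near-equal share were miR-26a-5p, miR-22-3p, miR-191-5p, miR-28-3p, let-7e-5p and miR-99b-3p. Their ratios of HGC27 over AGS lay between 0.810 for miR-99b-3p and 1.09 for miR-22-3p. With all counts they lay between 2.79 and 3.75, so that none was near-equal there. The share of miR-7-5p, known for acting on the epidermal growth factor receptor, at 2.16% of HGC27 and 1.33% of AGS counts, was 1.62-fold higher in HGC27 (1.597 to 1.645) with all counts and 2.12-fold higher in AGS without the pair. The gut miRNAs miR-192-5p and miR-194-5p were lower in HGC27 under both totals, with ratios of 0.853 (0.751 to 0.968) and 0.523 (0.392 to 0.689) with all counts. On the deposited score the log2 ratio of miR-192-5p was 0.05.

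Markers of other cell types were looked for in both libraries. Of the 15 names searched, miR-206 was listed in neither of them, and 5 were listed. The counts of miR-126-3p of endothelium, a member of the set restricted to HGC27, were 795 in HGC27 and 20 in AGS. Those of miR-1-3p of muscle were 340 and 56, those of miR-122-5p of liver 38 and 6, those of miR-126-5p 17 and 0 and those of miR-144-3p of red cells 2 and 0. The remaining 9, which include miR-142, miR-150 and miR-223 of leukocytes, miR-451a of red cells, miR-133 of muscle and miR-124 of neurons, had no count in either library. The sum of the list was 0.0820% of the HGC27 counts and 0.00277% of the AGS counts. Its part in the miRNAs restricted to HGC27 was not tested.

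Choice of the major strand within a hairpin did not separate the lines. Both arms could be compared for 27 hairpins. The same arm was the major one in both lines for 27 of 27, and the share of the 5p arm was within 10 percentage points in 26, with a median difference of 0.271 points. The exception was miR-339, with 69.8% in HGC27 and 59.4% in AGS. Just inside that limit were miR-423, at 9.64% in HGC27 and 19.6% in AGS, and miR-140, at 9.86% and 0%. Most of the 27 had nearly all counts on the same arm in both lines, which left little room for a difference in points. Forms with shifted ends were alike in some pairs and less so in others. A predicted entry that begins 1 base inside miR-10a-5p was 65.2% of its pair in HGC27 and 64.5% in AGS, while an entry that begins like miR-182-5p and ends 1 base later was 52.1% of its pair in HGC27 and 28.9% in AGS. End forms of miR-10b-5p and miR-671-3p were 54.4% and 65.2% of their pairs in HGC27 and 44.2% and 53.8% in AGS. Those of miR-1307-3p, miR-203a-3p and miR-589-5p were 72.6%, 64.6% and 83.2% in HGC27 and 67.9%, 70.0% and 89.6% in AGS.

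Summed by seed, the lines were each led by 1 of 118 seeds. The seed CAGUGCA of miR-148a-3p, miR-148b-3p and miR-152-3p held 51.2% of the HGC27 counts and 4.90% of the AGS counts, when identical sequences were counted once. The seed AAGUGCU of miR-372-3p, miR-373-3p and miR-302b-3p held 81.0% of the AGS counts and 0.181% of those of HGC27, a 446-fold difference. The related seed AAAGUGC of miR-17-5p, miR-20a-5p, miR-93-5p and miR-106b-5p, which holds AAGUGC from its second base on, had 3.33% in HGC27 and 0.291% in AGS. Its ratio of HGC27 over AGS was 11.5, and that of CAGUGCA was 10.5. Both were near the median of 10.3-fold over the 159 names compared, with all counts in the totals.

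Finally, the restricted sets were read in the positive probe libraries of the same lines, which the definition did not use. These are other libraries of the same lines and not replicates of the negative probe. Of the 40 miRNAs restricted to HGC27, 39 could be compared and all 39 were higher in HGC27, 33 by at least 10-fold. Of the 157 names compared with the negative probe that had over 3 counts in a positive probe library, 80.9% were higher in HGC27 there and 39.5% by at least 10-fold. The median difference of the set, with counts under 3 set at 3, was at least 43.6-fold, and at least 140-fold with the negative probe. For AGS, 14 of 15 could be compared, all 14 were higher in AGS and 8 were so by at least 10-fold, beside 19.1% and 5.1% of the 157. The medians, lower bounds in the same way, were 20.8-fold with the positive and 67.6-fold with the negative probe. These medians are with all counts in the totals. There miR-372-3p and miR-148a-3p made up 50.7% of HGC27 and 85.7% of AGS counts with the negative probe. With the positive probe they made up 35.3% and 39.1%, so the sizes of the folds cannot be compared directly between the probes. The 2 left out, miR-424-3p and miR-203b-3p, had at most 2 counts in both positive probe libraries.

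Single miRNAs of the sets differed between the probes to unlike extents, again with all counts in the totals. The counts of miR-372-3p were 3885 in HGC27 and 572497 in AGS with the positive probe, a 125-fold difference. For miR-99a-5p they were 7485 and 30 (294-fold), for let-7c-5p 28194 and 121 (274-fold) and for miR-10b-5p 4490 and 30 (176-fold). In contrast, miR-199a-3p had 58 and 15 counts, a ratio of 4.55 where that with the negative probe was 1422. The ratio of AGS over HGC27 for miR-200b-3p was 2.87 with the positive probe (142 and 42 counts) and 91.96 with the negative one. For miR-200c-3p it was 2.50 and 12.02. Each of these kept its direction with either probe.

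**Figure D5:**
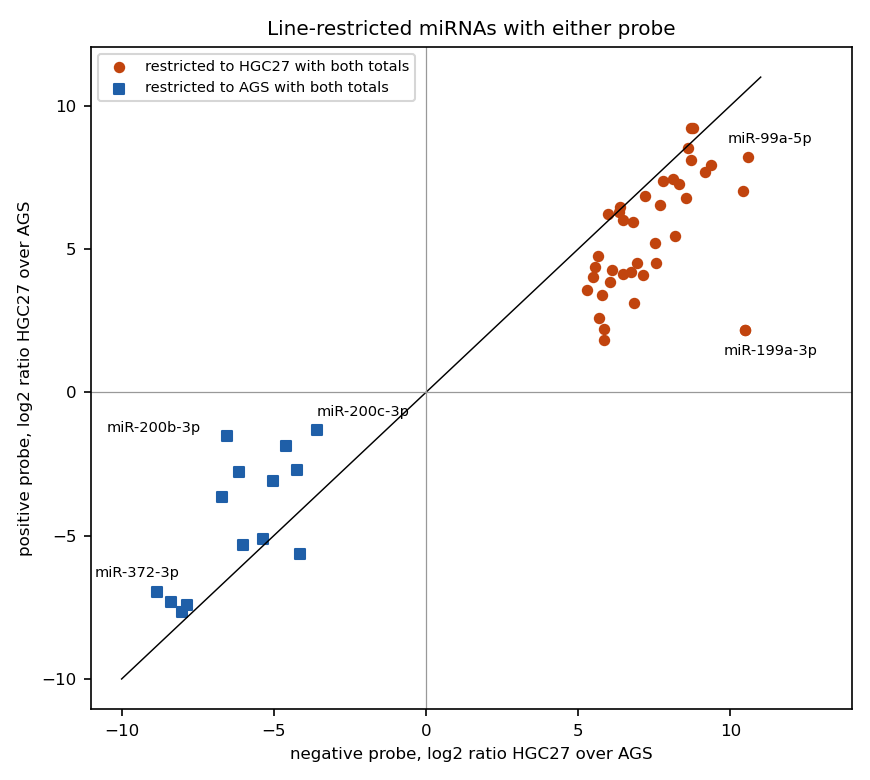
Log2 ratio of HGC27 over AGS with the positive probe against that with the negative probe for the restricted miRNAs, with all counts in the totals and without the 2 that had at most 2 counts in both positive probe libraries. The 39 points of HGC27 are all in the upper right quadrant and the 14 of AGS in the lower left one, most of them nearer to 0 on the positive probe axis than on the negative.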

How the data were processed

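Small RNA from the pull-down of HGC27 and AGS cells was sequenced in 4 libraries, and the 2 of the negative probe were compared. Raw counts of tags for each mature miRNA were deposited by the authors as 901 rows that were collapsed to 843 names (570 known, 273 predicted) because a miRNA with several precursors repeats its count. A blank was taken as 0. Per the submitters' processing notes, reads were trimmed with cutadapt 1.9.3 and aligned with Novoalign 3.02.12 on hg38. A normalized score (tags per 1000000, rounded) was deposited too and served as an alternative. Its divisors exceeded the totals of the table, which were 41.2% of the divisor in AGS and 50.0% in HGC27 for the negative probe, so shares are of the miRNA counts listed. The analysis had been planned for a continuous unit and used the rounded score in its place.

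Shares were counts over the total of the table, with and without miR-372-3p and miR-148a-3p in the totals. The totals were 1452832 (HGC27) and 2955078 (AGS), so that 3 counts were 2.06 and 1.02 per 1000000. Intervals are 95% exact (Clopper-Pearson for shares, conditional binomial for ratios). PCR copies are not independent molecules, and the intervals cover counting error only. Ratios against a count of 0 used 3 counts. Named miRNAs were the known ones among 5 marker miRNAs, the 10 largest shares and 12 most abundant restricted miRNAs of each line, the 4 most abundant members of each of 22 family lists and the 6 most abundant within 1.25-fold without the pair in the totals. Members and lists were chosen with earlier results of these data known. Other names rest on counts of their family or neighbourhood and were chosen after their values were seen. Positions are of RefSeq miRNAs on GRCh38 and host genes of GENCODE. Python 3.11.15, numpy 2.4.6, pandas 2.3.3 and scipy 1.17.1 were used, and library sizes by the trimmed mean of M-values (TMM) came from edgeR 4.0.16 in R 4.3.3. The interval and the 4-fold call were run on simulated counts that varied by counting error only. Such counts cannot show how either performs with PCR copies or between replicate libraries. Alternatives were other totals and size factors, the score, known miRNAs only, identical sequences counted once, other count minimums and other fold thresholds.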

Additional observations from a re-analysis of the deposited data

Results flagged for a closer look

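For 6 of the named miRNAs the ratio of HGC27 over AGS pointed one way with the negative probe and the other way with the positive probe, with both counting intervals on their side of 1. The difference between the probes was not tested, as each rests on 1 library a group. All 6 were higher in HGC27 with the negative probe and higher in AGS with the positive one, with all counts in the totals. The change in the log2 ratio, positive minus negative probe, was -3.94 for let-7e-5p, from 1.71 to -2.24, and its counts in AGS were 1148 with the negative and 49613 with the positive probe. It was -3.45 for miR-125a-5p, made from the same SPACA6 intron, from 0.68 to -2.77. For let-7i-5p it was -3.03, from 2.25 to -0.79, and for miR-22-3p it was -2.87, from 1.91 to -0.96. The pair miR-221-3p and miR-222-3p, neighbours on the X chromosome, changed by -2.46 and -2.64, the latter on 19 to 85 counts a library. Without miR-372-3p and miR-148a-3p in the totals the negative probe ratio was already below 1 for let-7e-5p, miR-125a-5p and miR-222-3p. The other 3 were on the AGS side with the negative probe too under TMM and median-of-ratios scaling, at log2 ratios of -0.48 and -0.36 for let-7i-5p, -0.82 and -0.70 for miR-22-3p and -0.57 and -0.45 for miR-221-3p. The direction with the negative probe thus depended on the scaling for all 6. None of the 6 was restricted to a line.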

How the results depend on the processing

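The number restricted to HGC27 moved with the scaling more than that restricted to AGS, which lay between 14 and 17, and both moved with the fold asked for. With all counts 80 names were restricted to HGC27. Their number was 40 without miR-372-3p and miR-148a-3p in the totals, 30 with TMM library sizes, 32 with median-of-ratios size factors, 46 at a minimum of 500 counts, 37 at 50-fold and 10 when the other line had to list none. For AGS it was 15, and it was 8 at 50-fold and 1 when HGC27 had to list none. Under all 5 scalings 30 stayed restricted to HGC27 and 14 to AGS. Not among the 30 were miR-615-3p, miR-378a-3p and miR-143-3p, the last 2 at log2 ratios of 3.06 and 3.24 with TMM. Also lost from the set under both totals were miR-92b-3p, miR-1180-3p, miR-1246, miR-193a-5p, miR-361-5p, miR-378a-5p and the end form of miR-181c-3p. Lost from the AGS set was miR-200c-3p, at a log2 ratio of -3.31 on the deposited score. At least 4-fold higher in HGC27 were 114 names, and 66 without the pair, 44 with TMM, 49 with median-of-ratios and 65 at 500 counts. In AGS there were 16, and 25 with TMM. The median log2 ratio of 3.37 was 1.58 without the pair, 0.64 with TMM, 0.76 with median-of-ratios and 3.65 with the deposited score.

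Of the 85 named miRNAs with a ratio, 9 at least 4-fold higher in HGC27 with all counts changed side under TMM. The same 9 did so under median-of-ratios. Their log2 ratios under the first and the second were -0.52 and -0.40 for let-7g-5p, -0.48 and -0.36 for let-7i-5p, miR-143-5p and miR-145-3p, -0.38 and -0.26 for miR-181b-5p, -0.31 and -0.20 for miR-182-5p, -0.57 and -0.45 for miR-221-3p, -0.24 and -0.13 for miR-29c-3p, and -0.59 and -0.47 for miR-379-5p. Of these, miR-143-5p and miR-145-3p were not listed in AGS, so their ratios are lower bounds against 3 counts set there. With 1 count set in place of 3, the log2 ratio of each was 3.83 with all counts. Their side under TMM and median-of-ratios is therefore not settled. Each scaling multiplies every ratio by the same number, which is the cause of the changes in the 9 values. Counting identical sequences once or known miRNAs alone changed the direction of none of them, and counts set at 1 in place of 3 changed that of miR-302c-3p. Of the 85, the direction of 18 changed without the pair in the totals, of 29 under TMM and under median-of-ratios each, and of 3 on the deposited score. All other alternatives kept the 4 counts within 1.5-fold and the median within its counting interval. No paired analysis was possible because both groups hold 1 library. A difference under 3 counts in a library, 2.06 per 1000000 in HGC27 and 1.02 in AGS, was not detectable at this depth.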
